A study of Homo sapiens with 6 samples.

Results

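The genes described here make up a module that sets how much insulin-like growth factor (IGF) is free to act outside the cell. They are the pappalysin genes PAPPA and PAPPA2, the stanniocalcin genes STC1 and STC2, and the IGF-binding protein genes IGFBP2, IGFBP3, IGFBP4, IGFBP5, IGFBP6 and IGFBP7, 10 of the 58051 Ensembl genes counted in each library. PAPPA2 was chosen by its measured fall in RBFOX1 cells, so its values in this comparison are a description and carry no test. The other 9 genes were gathered around it by function, with earlier results of these data known. The data come from A172, an established human glioblastoma cell line. Stable lines were made by lentiviral delivery of either the GFP plasmid (GFP cells, the control) or the RBFOX1 plasmid (RBFOX1 cells), with 3 libraries of each, described as biological replicates. Both lines carry a lentiviral insert, and the sources used here do not say whether a line was a clone or a pool. RBFOX1 is an RNA-binding protein that recognizes TGCATG (in DNA letters), and the comparison asks which transcripts change when it is supplied to glioblastoma cells that barely express it.

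IGF-binding proteins hold the ligands IGF1 and IGF2 away from their receptor, and pappalysins are secreted metalloproteases that cut certain binding proteins and thereby release the ligand. PAPPA is best known for cutting IGFBP4, and PAPPA2 for cutting IGFBP3 and IGFBP5. The stanniocalcins are secreted glycoproteins that bind pappalysins and block them.

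Between 7433414 and 23249221 counts fell on genes per library. The targeted gene fits the labels, with 4, 0 and 1 counts of RBFOX1 in GFP cells and 10276 to 21451 in RBFOX1 cells. GFP replicate 1, the deepest library, stood apart from the other GFP libraries, since the chi-square of its counts, divided by the degrees of freedom, was 8.9 and 9.07 against them, whereas the other two gave 1.66 against each other. Among glial and mesenchymal markers, VIM and CD44 were abundant in both lines, though lower in RBFOX1 cells (log2 fold changes -0.65 and -0.90). The astrocyte marker GFAP was at 2.68 normalised counts in GFP and 1.58 in RBFOX1 cells and S100B at 0.351 and 0.74. In the same order, SOX9 was at 1202 and 540, OLIG2 at 123 and 85.5, NES at 3482 and 5272 and TNC at 903 and 71.5. Over all 20536 genes tested, 46.7% passed the threshold, an adjusted p under 0.05 in edgeR's quasi-likelihood test, 23.7% higher and 23% lower in RBFOX1 cells, so passing it was common in this comparison.

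RBFOX proteins are best known for regulating splicing through intronic sites, and they also bind 3' UTRs, where they can alter how long a transcript lasts. Introns were not searched here, and only the TGCATG sites in the 3' UTRs of the member genes are shown. In the canonical 3' UTR (GENCODE 44, GRCh38), searched on the transcript's own strand, 5 of the 10 genes held at least 1 site: PAPPA2 with 1, PAPPA with 2, STC1 with 3, IGFBP5 with 1 and IGFBP7 with 2. The windows of 30 bases below, which show what surrounds the motif, are read from GRCh38 on the transcript's strand, with the site in capitals.
PAPPA2, chr1:176843882-176843911, plus strand: aagccatggaaaTGCATGgagcaagggtga
PAPPA, 1 of its sites, chr9:116400185-116400214, plus strand: aggaaataaaaaTGCATGattaaaaactaa
IGFBP5, chr2:216673897-216673926, minus strand: gtgagtctcttcTGCATGcaggagtttctc
IGFBP7, first site, chr4:57031278-57031307, minus strand: atattattagtcTGCATGgttaaaagtagt
IGFBP7, second site, chr4:57030912-57030941, minus strand: gaaacaatagttTGCATGcgtaaggcattc
These 3' UTRs differ widely in length, and longer ones hold the motif more often by length alone. The PAPPA2 site starts at base 1440 of a 3' UTR of 3147 bases, counted from the stop codon, and among tested protein-coding genes whose 3' UTR lies within 20% of that length 61% hold at least 1 site. The 3' UTR of IGFBP7 is only 544 bases long, its sites start at bases 22 and 388, and 15.2% of genes with a 3' UTR of similar length hold one. For the 3' UTRs of IGFBP5 (4646 bases), PAPPA (5705 bases) and STC1 (2841 bases) the corresponding shares were 73.3%, 80% and 58.2%. No TGCATG was found in the 3' UTRs of STC2, IGFBP2, IGFBP3, IGFBP4 and IGFBP6. No other form of the site is reported, so binding of RBFOX1 to these 3' UTRs is not excluded.

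PAPPA2 (ENSG00000116183, chromosome 1 from 176463171 to 176845601 on the plus strand of GRCh38) was the abundant pappalysin of GFP cells and was almost lost in RBFOX1 cells. Normalised counts, scaled to the mean effective library size, were 1552, 1797 and 1603 in GFP replicates 1, 2 and 3 and 88.9, 66.6 and 76.7 in RBFOX1 replicates 1, 2 and 3. The groups lay far apart, and the lowest GFP library held many times the highest RBFOX1 library. The means were 1651 ± 129 and 77.4 ± 11.1 (SD, n = 3 each), which is 21.7-fold lower, or -4.44 on the log2 scale (SE 0.0917). Among the 11069 protein-coding genes with a mean normalised count of at least 50, it had the fourth lowest log2 fold change (rank 4). This rank only describes the fall by which the gene was chosen. The remaining PAPPA2 signal was still measured from 49, 60 and 84 counts.

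No tested protein-coding gene flanking PAPPA2 fell to a similar extent. The nearest tested protein-coding gene, the ubiquitin ligase gene COP1, lies 255885 bp before it and had a log2 fold change of -0.25 (adjusted p = 0.000318, edgeR's quasi-likelihood test). On the other side, RASAL2, a Ras GTPase-activating protein gene 1248503 bp away, had a log2 fold change of -0.069 (adjusted p = 0.38). The tested genes next in line, KIAA0040 before it (0.42, adjusted p = 0.726, at about 2 normalised counts) and RALGPS2 after it (0.063, adjusted p = 0.472), did not pass the threshold either.

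The profile of PAPPA2 over the 6 libraries was compared with that of every other protein-coding gene of that abundance by the root mean square difference of log2 profiles centred on their own mean. The most similar were TNFRSF11B, the decoy receptor osteoprotegerin, at a difference of 0.224, and HMGA2, an architectural chromatin protein of embryonic tissue, at 0.253. GALNT12, an enzyme that starts O-glycosylation, followed at 0.364, the matrix glycoprotein gene TNC at 0.397 and the actin-bundling protein gene LCP1 at 0.467. Their log2 fold changes were -4.22, -4.93, -3.78, -3.66 and -3.58, so the likeness is mostly the size of the fall between the groups.

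PAPPA (ENSG00000182752, chromosome 9 from 116153791 to 116402321), the other pappalysin, was close to the limit of detection in both lines. It had 7, 2 and 11 counts in the GFP libraries, against 2, 2 and 5 counts in the RBFOX1 libraries, and the groups overlapped. Its log2 fold change was -0.71 with a 95% interval from -1.99 to 0.57 (adjusted p = 0.386), and it lay at -0.02 without GFP replicate 3, which holds most of the GFP counts. A change of PAPPA was therefore not detectable at this depth, where 3 counts were worth 1.82 to 5.44 normalised counts. Expressed per length, as counts scaled by effective library size (CPM) per exonic kb, PAPPA2 made up 99.6 ± 0.289% of the pappalysin level of the control line and 96 ± 1.17% of the RBFOX1 line (SD, n = 3 each), so PAPPA stayed the minor pappalysin in both. The summed pappalysin level was 10.3, 11.9 and 10.6 in the GFP libraries and 0.609, 0.453 and 0.534 in the RBFOX1 libraries.

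**Figure D1:**
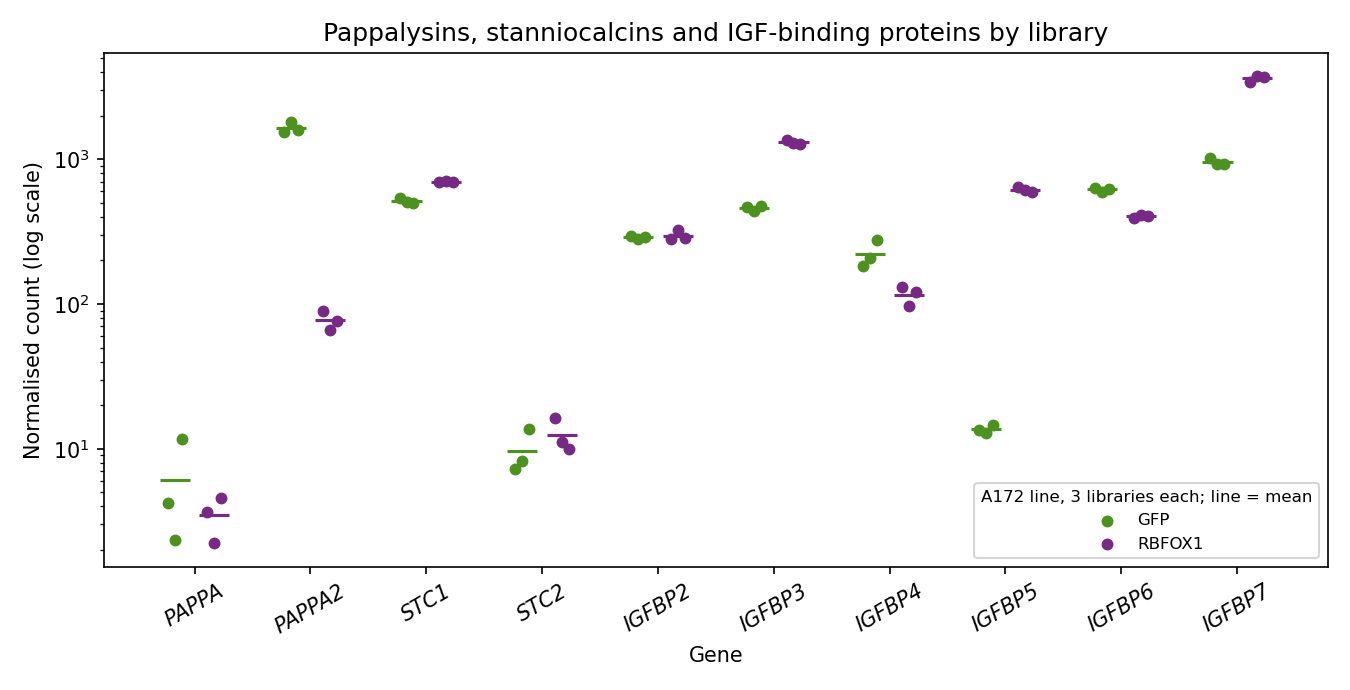
Normalised count (log axis) of the 10 genes in the 3 GFP (green) and 3 RBFOX1 (purple) libraries, with each point a library and each line a group mean. PAPPA2 drops from 1651 to 77.4 and IGFBP5 climbs from 13.6 to 616, while PAPPA and STC2 sit near the bottom in both lines.

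Of the 9 genes other than PAPPA2, 4 were higher and 2 were lower in RBFOX1 cells, and 3 were called in neither direction. The corresponding shares of the 20536 genes tested were 23.7% higher and 23% lower. The 9 had a median log2 fold change of 0.34, beside 0.0051 over all genes tested. This median is the value of STC2, a gene of few counts, and it was 0.10 without GFP replicate 1 and 0.18 without RBFOX1 replicate 1. The libraries of the groups did not overlap in 6 of the 9, where 53.4% of all genes tested show no overlap. A log2 fold change of at least 1 was reached upwards by 3 of the 9, namely IGFBP3, IGFBP5 and IGFBP7, compared with 8.21% of all genes tested, and downwards by 0 of the 9, compared with 4.48% of all genes tested, in edgeR, DESeq2 and limma-voom alike, also at an unadjusted p under 0.05. Without GFP replicate 1, the library that stood apart, IGFBP4 lay past it at -1.09 (adjusted p = 1.54e-08, edgeR). In bulk RNA, fewer cells of a kind and less RNA per cell cannot be told apart.

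Of the pappalysin inhibitors, STC1 rose modestly and STC2 was barely expressed. STC1 (ENSG00000159167, chromosome 8 from 23841929 to 23854806) had 540, 504 and 501 normalised counts in the GFP libraries, against 698, 711 and 691 in the RBFOX1 libraries. Every RBFOX1 library lay above every GFP library, by a log2 fold change of 0.44 (SE 0.0661, adjusted p = 2.19e-06). STC2 (ENSG00000113739, chromosome 5 from 173314723 to 173328447) had 12, 7 and 13 counts in the GFP libraries, against 9, 10 and 11 counts in the RBFOX1 libraries. Its log2 fold change of 0.34 had a 95% interval from -0.44 to 1.12 (adjusted p = 0.503), and its groups overlapped.

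Set side by side per length, the inhibitor sum lay below the protease sum in each GFP library and far above it in each RBFOX1 library. The summed level of STC1 and STC2 was 9.12 ± 0.346 CPM per exonic kb in the control line and 12.4 ± 0.177 in the RBFOX1 line (SD, n = 3 each). Its difference had an exact two-sided permutation p of 0.1, the smallest that 3 against 3 libraries allow. STC1 made up 98.5 ± 0.578% of this level in GFP and 98.6 ± 0.382% in RBFOX1 cells. The ratio of stanniocalcin to pappalysin level was 0.928, 0.751 and 0.839 in the GFP libraries and 20.4, 27.7 and 22.8 in the RBFOX1 libraries, a shift fixed largely by PAPPA2 and given as a description.

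**Figure D2:**
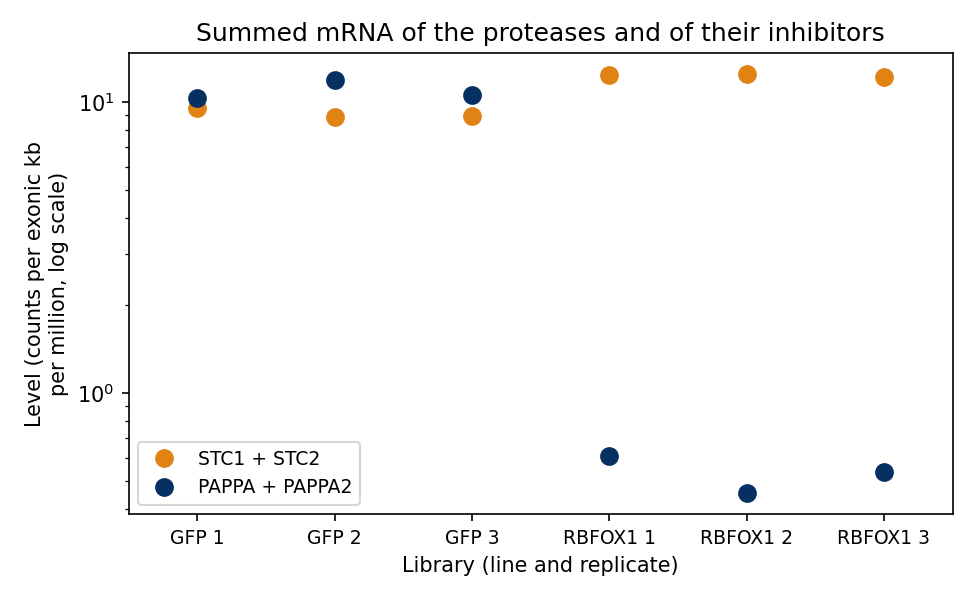
Summed level (CPM per exonic kb, log axis) of the stanniocalcins STC1 and STC2 (orange) and of the pappalysins PAPPA and PAPPA2 (blue) in each of the 6 libraries, 1 point per library and sum. The inhibitor sum lies somewhat below the protease sum in each GFP library, whereas in RBFOX1 cells the inhibitors stand at 12.4 on average and the proteases at 0.532.

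Among the IGF-binding proteins, IGFBP5, a substrate of PAPPA2 that also binds extracellular matrix, showed the largest change of the 10 genes. IGFBP5 (ENSG00000115461, chromosome 2 from 216672105 to 216695549, minus strand) had 22, 11 and 14 counts in the GFP libraries, against 356, 548 and 652 counts in the RBFOX1 libraries. In normalised counts these were 13.4, 12.8 and 14.7 against 646, 608 and 595, so the gene went from barely detected to moderately expressed in all 3 RBFOX1 libraries. The log2 fold change was 5.48 (SE 0.127, adjusted p = 3.89e-24), or 44.7-fold with a 95% interval from 37.3 to 53.5.

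IGFBP2 (ENSG00000115457, chromosome 2 from 216632828 to 216664436, plus strand), a binding protein often abundant in glioblastoma, lies 7669 bp from IGFBP5, and the 3' ends of the genes face each other. IGFBP2 had 293, 281 and 290 normalised counts in the GFP libraries, against 281, 324 and 284 in the RBFOX1 libraries. Its groups overlapped, and its log2 fold change of 0.043 had a 95% interval from -0.13 to 0.22 (adjusted p = 0.728), so a change beyond 1.16-fold upwards or 1.10-fold downwards lies outside that interval. The interval of its neighbour IGFBP5 ran from 5.22 to 5.74.

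IGFBP7 and IGFBP3 rose severalfold from levels that were already substantial. IGFBP7 (ENSG00000163453, chromosome 4 from 57030773 to 57110385), which binds IGF only weakly and is found in vessel basement membranes, had 1020, 930 and 928 normalised counts in the GFP libraries, against 3419, 3735 and 3688 in the RBFOX1 libraries. This was a log2 fold change of 1.91 (SE 0.0546, adjusted p = 5.42e-22), or 3.76-fold. IGFBP3 (ENSG00000146674, chromosome 7 from 45912245 to 45921874), the main IGF carrier of serum and a substrate of PAPPA2, had 469, 440 and 473 normalised counts in the GFP libraries, against 1351, 1286 and 1282 in the RBFOX1 libraries. It rose by 1.5 on the log2 scale (SE 0.0613, adjusted p = 2.57e-18), or 2.82-fold, and in both genes the RBFOX1 libraries lay above all GFP libraries.

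IGFBP4 and IGFBP6 moved the other way and by less. IGFBP6 (ENSG00000167779, chromosome 12 from 53097436 to 53102345), which prefers IGF2 over IGF1, had 633, 596 and 626 normalised counts in the GFP libraries, against 394, 412 and 407 in the RBFOX1 libraries, a log2 fold change of -0.61 (SE 0.0696, adjusted p = 1.48e-08). IGFBP4 (ENSG00000141753, chromosome 17 from 40443450 to 40457725), the classical substrate of PAPPA, had 183, 209 and 277 normalised counts in the GFP libraries, against 131, 96.6 and 121 in the RBFOX1 libraries. It was the least even of the well-measured binding proteins, with a coefficient of variation of 21.7% among the GFP libraries. Its log2 fold change was -0.94 (SE 0.158, adjusted p = 0.000142), and it ranged from -1.09 without GFP replicate 1, its lowest GFP library, to -0.76 without GFP replicate 3, its highest.

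Together the rises outweighed the falls, and the make-up of the binding protein mRNA shifted towards IGFBP7. The summed level of the 6 binding proteins was 88 ± 2.8 CPM per exonic kb in the control line and 192 ± 5.77 in the RBFOX1 line (SD, n = 3 each), 2.19-fold higher (exact two-sided permutation p = 0.1, the smallest possible). Most of the gain lay in IGFBP7, which binds IGF only weakly and stood at 35.8 in GFP and 135 in RBFOX1 cells. IGFBP7 provided 40.7 ± 1.76% of the summed level in GFP and 70.1 ± 1.23% in RBFOX1 cells. IGFBP6 shrank from 37.6 ± 0.0553% to 11.3 ± 0.0775% and IGFBP4 from 8.29 ± 1.75% to 1.98 ± 0.349%. IGFBP3 grew from 8.26 ± 0.0893% to 10.7 ± 0.649%, IGFBP5 from 0.173 ± 0.00997% to 3.58 ± 0.258%, and IGFBP2 shrank from 4.98 ± 0.0589% to 2.34 ± 0.148% although its own level did not change detectably. No share overlapped between the groups of libraries. The shares are parts of the same sum, so a rise of any gene lowers the shares of the others. By their own counts, 53.4% of all genes tested showed no overlap.

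**Figure D3:**
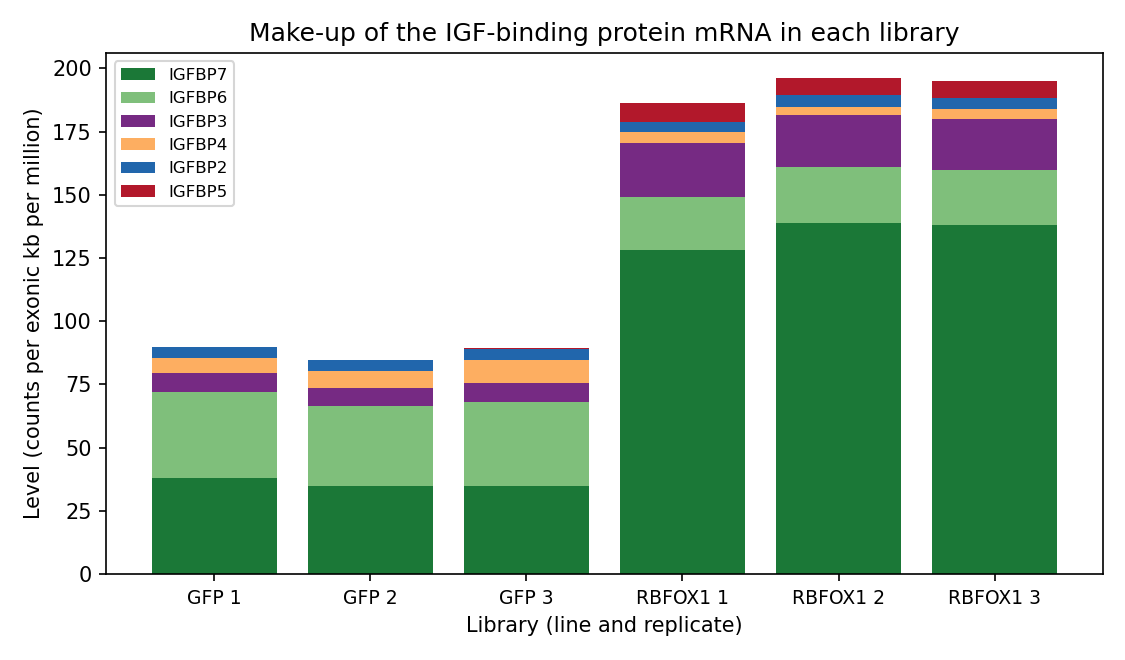
Stacked level (CPM per exonic kb) of the 6 IGF-binding protein genes in each GFP and RBFOX1 library, 1 bar per library. The bars stand between 84.8 and 89.9 in GFP and between 186 and 197 in RBFOX1 cells, and IGFBP7 grows from 40.7% to 70.1% of the bar on average.

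Ordered by level per length, the genes of GFP cells ran IGFBP7 (35.8), IGFBP6 (33.1), PAPPA2 (10.9), STC1 (8.98), IGFBP4 (7.29), IGFBP3 (7.27), IGFBP2 (4.38), IGFBP5 (0.152), STC2 (0.138) and PAPPA (0.0377). The libraries of STC1 and IGFBP4, of IGFBP4 and IGFBP3, and of IGFBP5 and STC2 overlapped, so these neighbours in the order could not be separated. In RBFOX1 cells the order was IGFBP7 (135), IGFBP6 (21.6), IGFBP3 (20.6), STC1 (12.2), IGFBP5 (6.87), IGFBP2 (4.50), IGFBP4 (3.79), PAPPA2 (0.51), STC2 (0.178) and PAPPA (0.0216), in which IGFBP6 and IGFBP3 overlapped. PAPPA2 thus went from rank 3 to rank 8 and IGFBP5 from rank 8 to rank 5. The order, and the shares and ratios between genes above, rest on the merged length of all annotated exons. That length is 4742 bases for IGFBP2, whose canonical 3' UTR has 332, and 1346 bases for IGFBP6. The transcripts in these cells may be shorter, so genes without overlap may still stand in another order.

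Read against the TGCATG sites, 3 of the 4 genes that rose (STC1, IGFBP5 and IGFBP7) and 0 of the 2 that fell at the threshold (IGFBP4 and IGFBP6) held a site in the 3' UTR. PAPPA2 held 1 and was far lower, IGFBP3 held none and rose, and PAPPA held 2 and was called in neither direction. The 2 genes that fell have short 3' UTRs, 1142 bases in IGFBP4 and 173 bases in IGFBP6. Among genes with a 3' UTR of similar length, 28.5% and 4.55% hold a site. With so few genes this is a description of where the letters occur.

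The genes of other cell types that the libraries could hold were low, and most of those tested were higher in RBFOX1 cells. The 3 endothelial markers PECAM1, VWF and CDH5 all rose, from a summed 10.3 to 12.8 normalised counts in GFP to 95.9 to 109 in RBFOX1 cells. Of the 3 epithelial markers 2 rose (sum 8.43 to 14 against 49 to 66.7), as did 1 of the 3 immune markers (14 to 32.8 against 50.8 to 71.1, with CD3E at 0 in every library) and 1 of the 3 neuronal markers (15.2 to 18.7 against 36.3 to 46.6). Some of these rises rest on few counts. The epithelial marker CDH1 had 0, 1 and 0 counts in the GFP libraries, against 3, 4 and 5 in the RBFOX1 libraries. VWF had 2, 2 and 1 against 10, 29 and 28. EPCAM, CD14 and SLC17A7 did not pass the threshold, with log2 fold changes of 0.50, -0.90 and 0.017, and CD3E and RBFOX3 were not tested. Of the 8 glial and mesenchymal markers 1 rose and 5 fell (sum 78453 to 79558 against 50938 to 51649). Over all genes tested 23.7% were higher and 23% lower. The part of these shifts in the results above was not tested.

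Around the 10 genes, 27 others of the IGF axis were looked at from a fixed list, of which 20 had enough counts to be tested, 5 rising and 5 falling, with a median log2 fold change of 0.12. Over all genes tested 23.7% rose and 23% fell, close to these shares. Ligand transcripts were nearly absent. IGF1 had 1 count in all 6 libraries together, while IGF2 had 32, 23 and 23 counts in the GFP libraries, against 6, 9 and 12 counts in the RBFOX1 libraries, a log2 fold change of -1.10 (SE 0.302, adjusted p = 0.00331). The IGF2 counts are uncertain because 20.4% of its exonic bases are shared with the readthrough gene INS-IGF2. INS, which shares 37.5% of its exonic bases with the same gene, had no count.

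At the cell surface, IGF2R, the receptor that takes up IGF2 for degradation, was the most abundant receptor of the list by count and fell from 7308 ± 555 to 4957 ± 402 normalised counts (SD, n = 3 each), with a fold of -0.56 on the log2 scale (adjusted p = 9.86e-08). The signalling receptors did not pass the threshold, with a log2 fold change of -0.1 for IGF1R (95% interval of the fold 0.804 to 1.08, adjusted p = 0.475) and 0.11 for INSR (0.974 to 1.2, adjusted p = 0.228). Among the adaptors, IRS2, which couples both receptors to PI3K, rose from 92.2 ± 5.25 to 201 ± 10.7 normalised counts, a log2 fold change of 1.13 (adjusted p = 1.18e-09). SHC1, the adaptor with most counts, rose by only 0.20 on the log2 scale (adjusted p = 0.000461), and 7.72% of its exonic bases are shared with PYGO2. LRP1, a large scavenger receptor that also binds IGFBP3, had a log2 fold change of 0.30 with wide error (SE 0.228, adjusted p = 0.376).

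ADAM9, a membrane protease reported to cut IGF-binding proteins, fell by 1.09 on the log2 scale (SE 0.0464, adjusted p = 6.04e-18), from 11694, 11796 and 11696 to 5378, 5642 and 5479 normalised counts. IGF2BP3, an oncofetal protein that binds IGF2 mRNA, fell by 1.20 (SE 0.0526, adjusted p = 1.32e-17), from 2995 ± 62.8 to 1302 ± 79.8 normalised counts (SD, n = 3 each). The other genes of the list that passed the threshold, named after their values were seen, were GRB2, ADAM12 and IGF2BP1, with log2 fold changes of 0.17, 0.52 and 0.44, and TMEM219, a receptor for IGFBP3, with -0.55. PRG2, whose product inhibits PAPPA, had no count in any library, but 42.9% of its exonic bases are shared with an overlapping gene, where reads may not have been assigned.

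**Figure D4:**
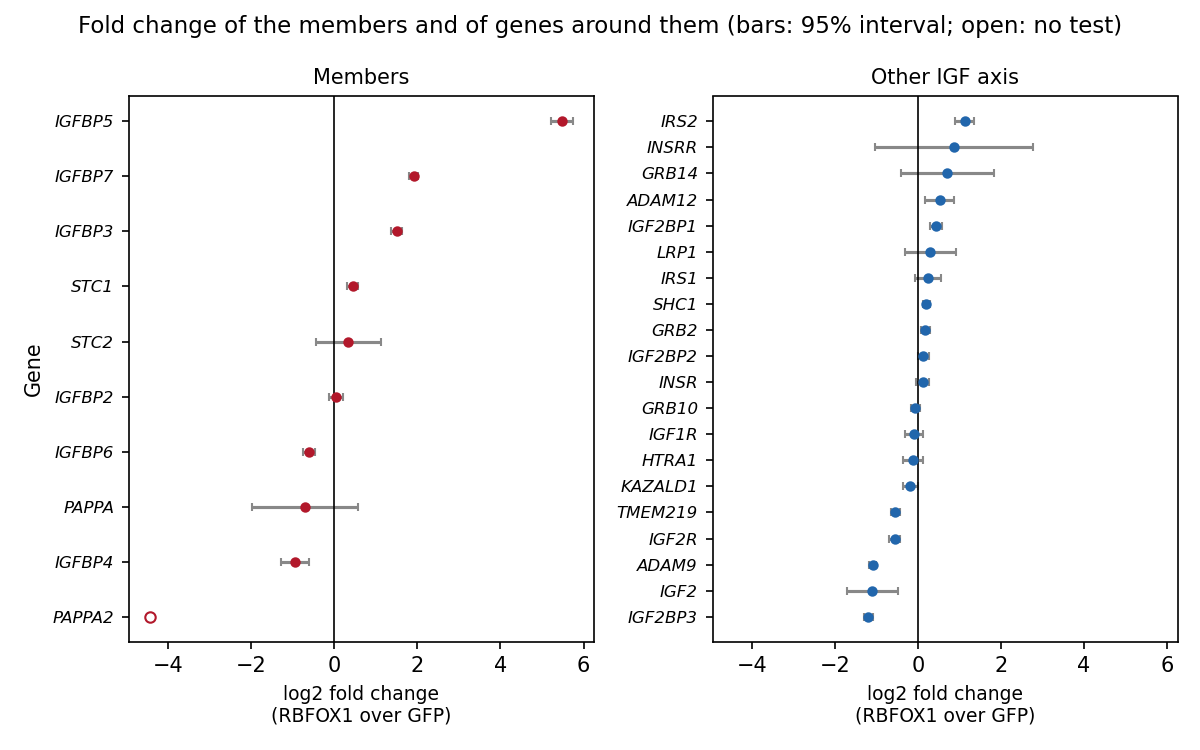
Log2 fold change (RBFOX1 over GFP) of the 10 members (red) and the 20 tested genes of the other IGF axis list (blue), each ordered by value, with bars for the 95% interval. PAPPA2 (open point, -4.44) was chosen by its fall and has no interval. IGFBP5 stands at 5.48, while the other IGF axis genes stay between -1.20 and 1.13.

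In the PI3K-AKT chain downstream of the receptors, 4 of 17 tested genes rose and 3 fell, beside 23.7% and 23% over all genes tested, with a median log2 fold change of 0.050, and most of these differences were small. The exception was FOXO3, a transcription factor that AKT keeps out of the nucleus, with 506, 482 and 486 normalised counts in the GFP libraries, against 1166, 1102 and 1106 in the RBFOX1 libraries, a log2 fold change of 1.19 (SE 0.0617, adjusted p = 6.57e-16). Named after their values were seen, PIK3CB (0.52), PIK3R1 (0.19) and PDPK1 (0.15) were the other genes higher, and PIK3CA (-0.31) was among those lower. PIK3R1 and PDPK1 passed only narrowly (adjusted p = 0.0344 and 0.0361, edgeR's quasi-likelihood test). PIK3R2 was not tested, and 76.4% of its exonic bases are shared with an overlapping gene.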

How the data were processed

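Per the labels and the methods of the study, rRNA was removed from total RNA and the stranded libraries were read from both ends. The authors used HISAT2 for alignment to GRCh38 and HTSeq-count (intersection-strict) for counting on Ensembl genes, and deposited raw counts of each library. Their deposited table of DESeq2 results (mean, log2 fold change, standard error, statistic and p-values per gene) was not used.

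TMM scaling was followed by the two-sided quasi-likelihood test of edgeR 4.0.16 in R 4.3.3. The model held the condition alone, and p-values were adjusted by Benjamini-Hochberg over all genes whose counts summed to 10 or more. The 5 lines of unassigned reads (6.61 to 8.74% on no gene, 6.89 to 9.35% ambiguous, 16.8 to 27% of low mapping quality and 4.64 to 7.46% not aligned) stayed out. Normalised counts are counts over effective library size, times its mean over libraries. Levels per length divide CPM (counts scaled by effective library size) by the merged exon length of GENCODE 44, a later annotation than that of the counts. Limits of 3 counts cover counting error only. The p-values set the difference between groups against the spread between these libraries. They cover differences between separately made lines only as far as the replicates hold them. DESeq2 (1.42.0) and limma-voom (limma 3.58.1), other scalings and filters, a replicate block and the omission of each library were alternatives. The procedure was tested on simulated data. Genes were named by rule: all members, RBFOX1, list genes changed by 1 or more on the log2 scale and a mean of at least 50 normalised counts, the most counted gene per role and the 5 profiles most like PAPPA2. Members and lists were chosen with earlier results of these data known. The flanking genes were added after the values were seen. A few items that the naming rule or the motif search picked out are not reported here.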

Additional observations from a re-analysis of the deposited data

How the results depend on the processing

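The counts of 4 higher and 2 lower among the 9 members held under DESeq2, limma-voom, 3 other scalings, 2 other filters, the replicate block, an adjusted p under 0.01 and the omission of each library. A log2 fold change of 1 or more in size left 1687 of all genes higher and 920 lower, 0 members lower, 1 other IGF axis gene higher and 3 lower, and 1 PI3K-AKT gene higher and 0 lower (edgeR, also 0 at an unadjusted p under 0.05 and by DESeq2 and limma-voom). The PI3K-AKT genes called higher numbered 2 under an adjusted p under 0.01, DESeq2, upper quartile scaling, no filter and the replicate block, and 2 to 3 with a library left out (2 without GFP replicate 1 or RBFOX1 replicate 2). IGFBP2 turned to -0.02 without RBFOX1 replicate 2 and reached 0.09 at most, without passing the threshold in any fit. PAPPA2 lay between -4.50 and -4.34 with a library left out, and the other IGF axis counts between 4 and 6. Replicate numbers did not pair the libraries (correlations of same-numbered deviations -0.164, 0.0379 and -0.0539). The block left 4653 of all genes higher and 4501 lower. Without GFP replicate 1 all member calls at the threshold were the same, but IGFBP4 passed a log2 fold change of -1 (-1.09). Depth limits PAPPA and STC2.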

Other observations

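Member genes were also set beside the nearest tested protein-coding gene on either side, a look chosen after the member values were seen. TOP2A, a topoisomerase gene of dividing cells 25554 bp before IGFBP4, had a log2 fold change of 1.33 (adjusted p = 3.82e-19, edgeR's quasi-likelihood test), opposite in sign to IGFBP4. TNS1, an adhesion protein gene 1104039 bp after IGFBP5, rose with it, by 2.82 on the log2 scale (adjusted p = 8.57e-11), from 9.34 to 67.6 normalised counts. ASTN2, 20791 bp after PAPPA, had a log2 fold change of -0.51 (adjusted p = 6.44e-05). SPRYD3 and NOA1, beside IGFBP6 and IGFBP7, had adjusted p-values of 0.778 and 0.372.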
